A study of Mus musculus with 2 samples.

Results

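Red blood cells and their nucleated precursors depend on a small set of genes for oxygen transport, and 42 of them were followed here in whole pancreas of mouse embryos at E15.5. The set holds 3 embryonic and 4 adult globins, 7 enzymes of heme synthesis, 3 carriers and receptors for iron and heme precursors, 7 membrane proteins, 3 proteins of the membrane skeleton, 2 carbonic anhydrases, 6 transcription factors and cofactors, and 7 other erythroid genes. The genes, and the lists set beside them below, were chosen by name with earlier results of these data known. A probe set belongs to a gene when the platform's gene table gives it that symbol. Of the 42 genes, 37 had a value from a probe set of exactly 1 symbol, among 19938 genes with such a value in all. The 4 adult globins share probe sets among near-identical copies and are described as probe sets. *Ahsp*, which encodes the chaperone of free α-globin, was not analysed here because the gene table used pairs no probe set with that symbol.

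The wild-type (WT) embryos and the *Mafk*-Tg embryos were both kept on an ICR background. The *Mafk*-Tg embryos carried a FLAG-tagged mouse MAFK cDNA behind the rat insulin I promoter, which drives expression in β-cells, and the construct had been injected into fertilized BDF1 eggs. The labels give whole pancreata at E15.5 and 3 per genotype, and 1 array per genotype was analysed. Whether each array held a pool of these pancreata is not stated in the sources used here. Replicate error can therefore not be estimated, every comparison is given without a test, and the precision of each value is limited by the number of arrays. All values are log2 signals normalized by the authors, a difference is the *Mafk*-Tg signal minus the WT signal, and 1.2-fold, or 0.26 on the log2 scale, is the cutoff the study set for the arrays. Signals of different probe sets depend on their probes and are not read as amounts of RNA of one gene against another.

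Blood formation moves during gestation. Primitive red cells from the yolk sac carry embryonic globins, and the fetal liver then releases definitive red cells, which carry adult globins. A maturing erythroblast builds heme in mitochondria and cytosol, loads it into globin, assembles a spectrin skeleton under its membrane, and switches these genes on through GATA1, KLF1 and the TAL1 complex. MAFK is itself a partner of this programme in blood cells, since it pairs with the NFE2 protein to form a factor that binds globin control regions.

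The promoters of 6 of these genes are shown, from genes at the extremes of the comparison and an adult globin beside them. They are both embryonic globins that were higher in *Mafk*-Tg, an adult α-globin of the same cluster, and the 3 genes with the largest decreases for which a promoter was given. The sequences are from RefSeq, build GRCm38.p6, and run 5′ to 3′ on the gene's strand over the 250 bases before the start of transcription. Capitals mark the GATA motif, searched on both strands in 4 spellings. A motif begins with AGATA or TGATA, and its last letter, which follows directly, is A or G.
*Hba-x*, chr11:32276350-32276599, plus strand: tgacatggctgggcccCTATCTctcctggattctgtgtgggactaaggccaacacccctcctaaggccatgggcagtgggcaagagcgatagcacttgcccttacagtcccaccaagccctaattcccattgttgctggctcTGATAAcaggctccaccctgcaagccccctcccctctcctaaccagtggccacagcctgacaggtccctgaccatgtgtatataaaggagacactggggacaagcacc
*Hbb-y*, chr7:103853208-103853457, minus strand: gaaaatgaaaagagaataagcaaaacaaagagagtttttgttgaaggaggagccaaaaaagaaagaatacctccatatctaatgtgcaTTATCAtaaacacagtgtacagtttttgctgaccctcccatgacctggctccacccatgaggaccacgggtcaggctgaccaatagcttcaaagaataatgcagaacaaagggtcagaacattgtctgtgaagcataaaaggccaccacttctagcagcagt
*Hba-a1*, chr11:32283422-32283671, plus strand: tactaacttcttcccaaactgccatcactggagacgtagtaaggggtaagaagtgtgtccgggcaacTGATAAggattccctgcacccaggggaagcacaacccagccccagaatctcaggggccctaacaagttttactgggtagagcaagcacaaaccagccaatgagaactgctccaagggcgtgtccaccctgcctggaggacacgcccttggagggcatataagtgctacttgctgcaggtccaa
*Rhag*, chr17:40810899-40811148, plus strand: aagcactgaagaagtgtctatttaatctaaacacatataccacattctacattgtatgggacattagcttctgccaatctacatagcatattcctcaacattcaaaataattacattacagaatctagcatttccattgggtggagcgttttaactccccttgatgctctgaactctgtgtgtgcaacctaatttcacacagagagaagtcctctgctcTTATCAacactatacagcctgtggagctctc
*Ermap*, chr4:119189996-119190245, minus strand: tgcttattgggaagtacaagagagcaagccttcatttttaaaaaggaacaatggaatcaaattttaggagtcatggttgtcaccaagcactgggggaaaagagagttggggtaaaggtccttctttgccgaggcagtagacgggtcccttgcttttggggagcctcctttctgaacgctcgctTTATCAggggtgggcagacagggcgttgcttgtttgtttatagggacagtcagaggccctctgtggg
*Hemgn*, chr4:46404184-46404433, minus strand: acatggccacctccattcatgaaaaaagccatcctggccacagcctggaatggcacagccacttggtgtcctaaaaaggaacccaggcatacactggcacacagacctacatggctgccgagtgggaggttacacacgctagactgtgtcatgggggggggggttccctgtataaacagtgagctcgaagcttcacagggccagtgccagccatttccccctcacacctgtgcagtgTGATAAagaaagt

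Each of the 6 promoters holds a GATA motif. It begins 31 bases before the start in *Rhag*, 67 in *Ermap*, 13 in *Hemgn*, 162 in *Hbb-y* and 183 in *Hba-a1*, while *Hba-x* has a motif at 234 and another at 108 bases. Promoters of 300 bases, from 250 before to 50 after the start, were given for 29 of the 42 genes, and a gene with several windows counted once if any of them matched. A GATA motif was present in 21 of these 29, or 72.4%, against 33.0% of all 27025 genes with such a window. It was present in 11 of the 15 genes that were at least 1.2-fold lower in *Mafk*-Tg, in 6 of the 10 within the cutoff and in 2 of the 2 that were higher. The motif was thus found on either side of the comparison, and a match describes the letters only. The letters CCNCNCCC, a loose form of the CACCC box that also matches plain runs of C, were found in 19 of 29, or 65.5%, against 51.9% of all genes. The core of the MAF recognition element, which small MAF and NFE2 proteins bind, was found in 0 of 29, against 0.492% of all genes. Its inner letters TGANTCA were found in 2, *Kel* and *Trim10*, against 8.97% of all genes. CCAAT was found in 14 of 29 against 41.1% of all genes, and TATAAA in 5 of 29 against 15.7%.

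Erythroid genes were mostly lower on the *Mafk*-Tg array. The only 2 past the cutoff in the other direction were the embryonic globins *Hba-x* and *Hbb-y*. Of the 37 genes with a value, 23 were at least 1.2-fold lower, 2 were higher and 12 lay within the cutoff. Over all genes, 10.5% were lower and 7.96% higher by as much. Counts of lists below that have no share of their own stand beside these. There, 1 gene past the cutoff is not read as a result about its list. The 2 higher erythroid genes lie near the share over all genes and are not read as a result about embryonic globins. A difference below 0 was seen in 35 of the 37 genes, and their median was -0.37, against -0.01 over all genes. Without the globins, 34 of 34 were below 0, with a median of -0.41. Of all 19938 genes, 10291 were below 0 and 8960 above 0. Counts by direction given further on stand beside these 2 numbers. At 1.5-fold, 6 of the 37 were lower, namely *Car1*, *Rhag*, *Ermap*, *Hemgn*, *Rhd* and *Gfi1b*, and 0 were higher, where 1.27% of all genes were lower and 0.697% higher. All 6 had a mean signal at or above the median level, where 0.51% of genes were lower by 1.5-fold and 0.246% higher. In a whole tissue, fewer red cells and precursors and less RNA per cell cannot be told apart.

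**Figure D1:**
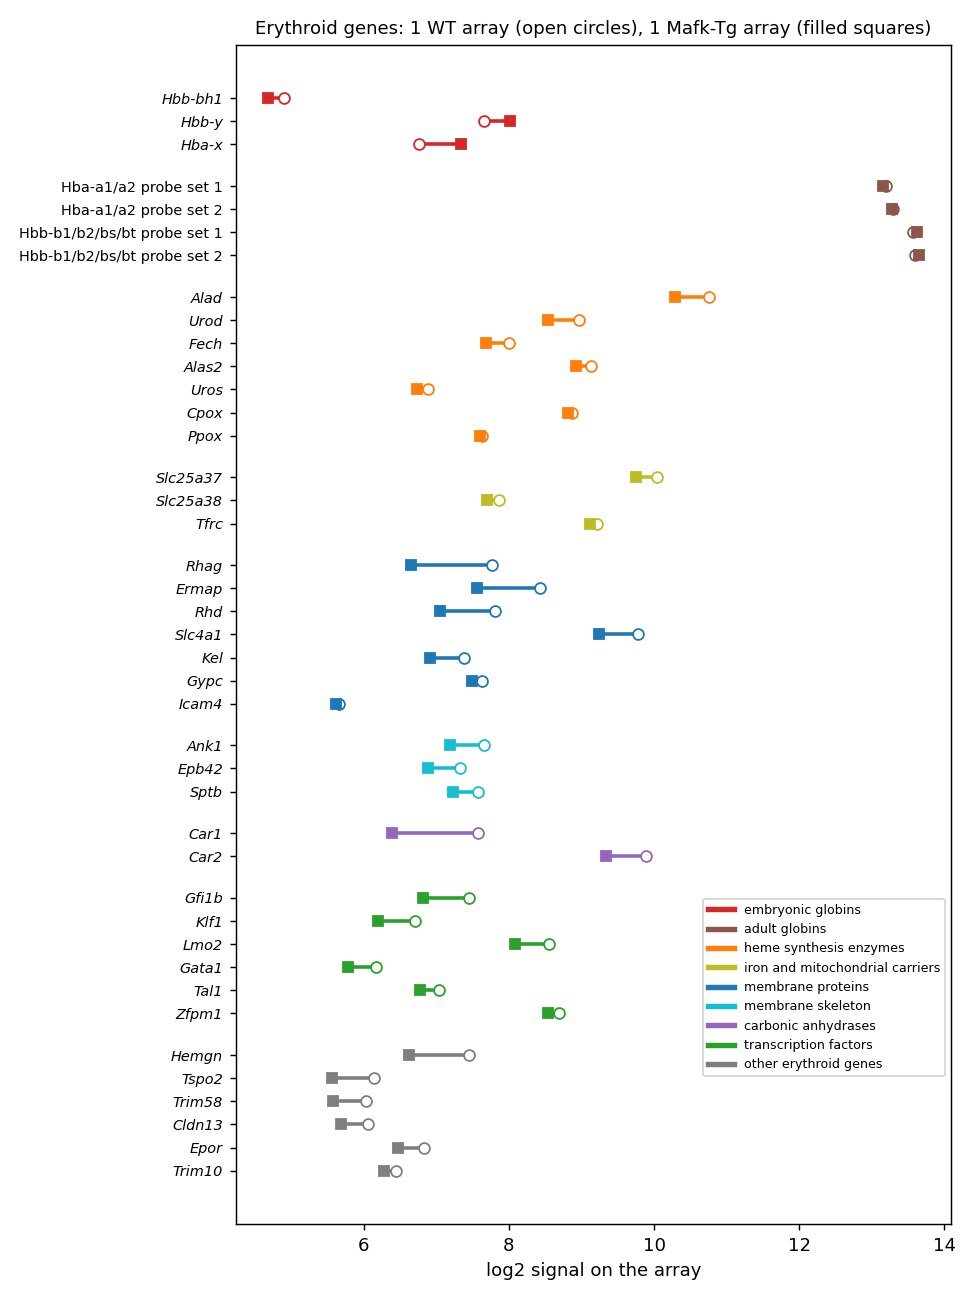
Log2 signal of each erythroid gene (one row each, with 4 adult globin probe sets) on the WT array (open circles) and the *Mafk*-Tg array (filled squares), coloured by role, with 1 array per genotype. The *Mafk*-Tg square lies to the left of the WT circle in 35 of the 37 single-gene rows and to the right in *Hba-x* and *Hbb-y*.

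Dim probe sets pass the cutoff more often than bright ones, so the genes were also read by level. Of the 37 genes, 31 had a mean signal of 6.01 or more, the middle value of all probe sets, called the median level here. Among these, 19 were lower and 2 higher, with a median of -0.36, while 5.85% of the 11376 genes at that level were lower and 5.57% higher. When all genes were split by level into 4 groups of near-equal size, 14 erythroid genes fell in the brightest group and 8 of them were lower, against 3.79% of that group. In the group next to it, 11 of 16 were lower, against 6.76%. In the group from 4.98 to 6.40, 4 of 6 were lower, against 11.9%. The remaining gene, *Hbb-bh1*, lay in the dimmest group.

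**Figure D2:**
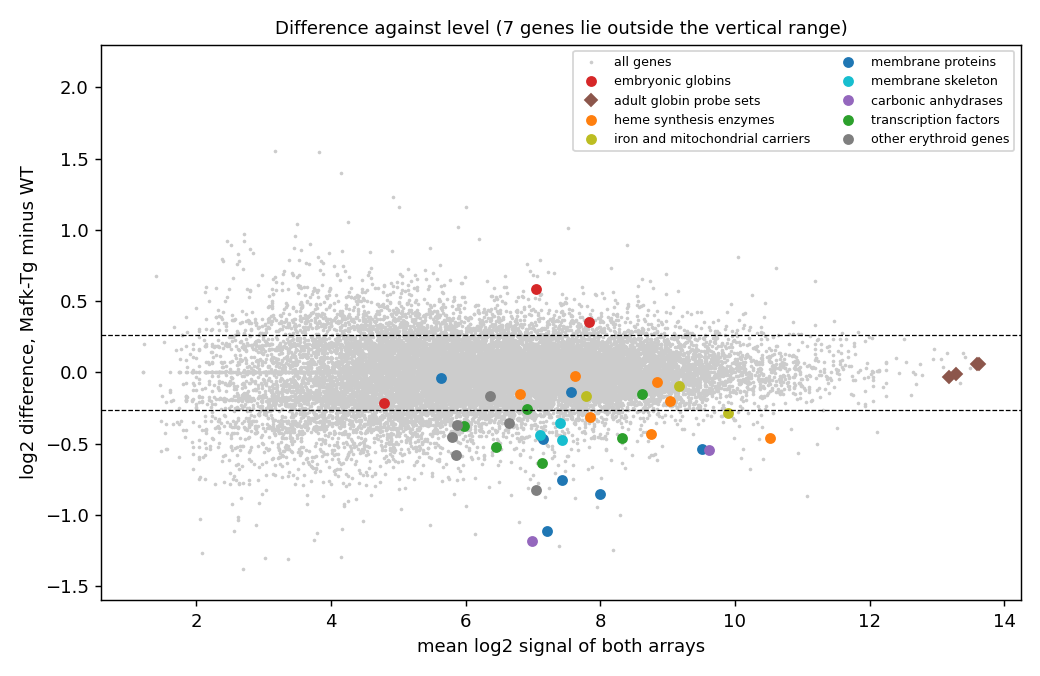
Log2 difference (*Mafk*-Tg minus WT) against the mean log2 signal of both arrays for all genes (grey), the erythroid genes by role (circles) and the adult globin probe sets (diamonds), with dashed lines at 1.2-fold. Most erythroid genes lie below the lower dashed line at middle and high levels, and the adult globins lie at the far right near 0.

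Globins carry the heme of the red cell. Of those measured here, 2 embryonic chains were higher, and the others lay within the cutoff. *Hba-x*, which encodes the embryonic ζ chain, had 6.76 in WT and 7.35 in *Mafk*-Tg, with a difference of 0.58, which lies just under 1.5-fold. Among the 11376 genes at or above the median level it had the 29th highest difference. *Hbb-y*, which encodes the embryonic εy chain, had 7.66 in WT and 8.01 in *Mafk*-Tg, with a difference of 0.35 or 1.28-fold. These were the only 2 of the 37 genes with a difference above 0, both as deposited and under each of the other scalings tried. *Hbb-bh1*, the other embryonic β-like gene, had 4.90 and 4.69, a difference of -0.22 that lies within the cutoff and below the median level of the arrays. *Hbb-bh2*, which is not in the set and was named after its value had been seen, was listed at 5.05 on both arrays, and is among 687 genes with equal values on both.

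Probe sets of the adult globins were at the bright end of the signal scale. The probe sets shared by *Hba-a1* and *Hba-a2* had 13.19 and 13.30 in WT and 13.16 and 13.28 in *Mafk*-Tg, with differences of -0.03 and -0.01. The probe sets shared by *Hbb-b1*, *Hbb-b2*, *Hbb-bs* and *Hbb-bt* had 13.57 and 13.59 in WT and 13.63 and 13.65 in *Mafk*-Tg, with a difference of 0.06 for each. In WT, 6 to 27 of the 35556 probe sets were brighter than these, and the highest value was 14.01. Of the 28 probe sets at least as bright in WT as the dimmest adult globin probe set, 0 passed 1.2-fold, and their differences ran from -0.19 to 0.13. Whether differences are compressed at this end of the scale was not tested. *Hba-x* and *Hbb-y* thus had a higher signal, and the adult chains were near 0. *Hbb-bh1*, at -0.22 and a dim signal, stayed within the cutoff. No gene of another role was above 0.

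**Figure D3:**
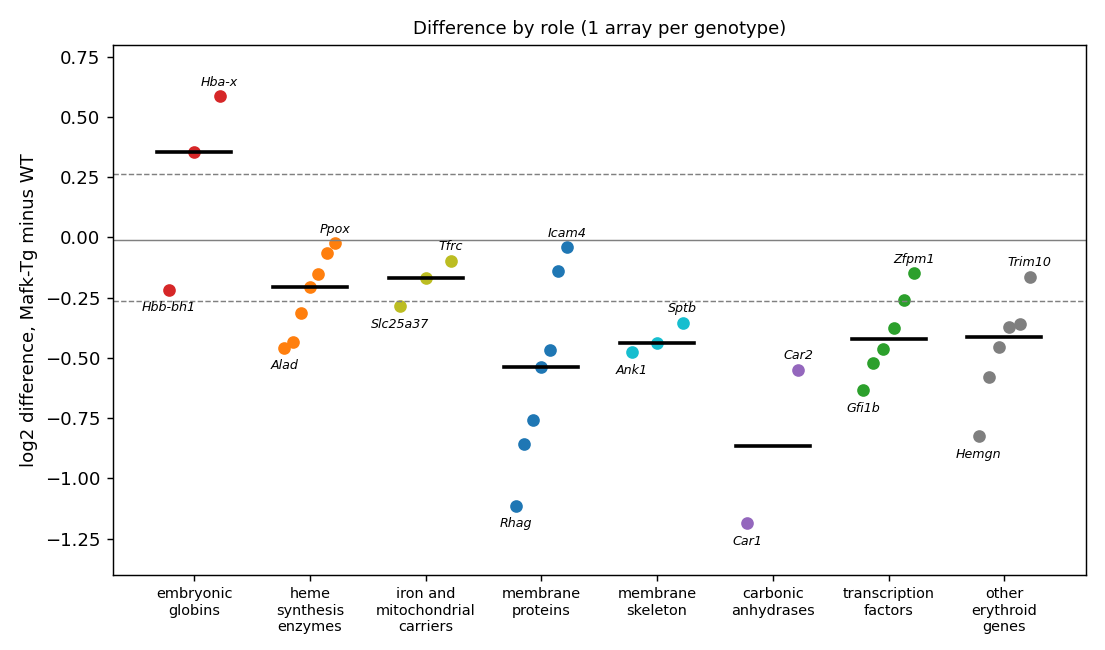
Log2 difference (*Mafk*-Tg minus WT) of the 37 erythroid genes by role, with black bars at each group's median, dashed lines at 1.2-fold and a grey line at the median of all genes. Membrane proteins reach -1.11 for *Rhag* and *Car1* reaches -1.19, while *Hba-x* reaches 0.58.

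Heme synthesis runs from glycine and succinyl-CoA to the insertion of iron, and its enzymes were lower to unequal degrees. Of 7 enzymes, 3 were at least 1.2-fold lower and 0 higher, with a median of -0.20. *Alas2*, the erythroid form of the first enzyme and the one that sets the pace in red cells, had 9.14 in WT and 8.93 in *Mafk*-Tg, with a difference of -0.20 within the cutoff. *Alad*, which joins the first product into a pyrrole, had 10.75 and 10.29, a difference of -0.46. *Uros*, which closes the tetrapyrrole ring, had -0.15. *Urod*, which trims the ring's side chains, had 8.97 and 8.53, a difference of -0.44. *Cpox* and *Ppox*, the mitochondrial oxidases that follow, had -0.07 and -0.03. *Fech*, the ferrochelatase that places iron in the ring, had 8.01 and 7.69, a difference of -0.32. Lower enzymes thus stood beside others near 0 along the same path, and every cell makes some heme.

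Of the 3 carriers and receptors that feed this path, 1 was at least 1.2-fold lower and 0 higher. *Slc25a37*, the erythroid importer of iron into mitochondria, had 10.04 in WT and 9.76 in *Mafk*-Tg, with a difference of -0.28 or 1.22-fold lower, the value just past the cutoff. *Slc25a38*, the mitochondrial glycine carrier, had -0.17, and *Tfrc*, the transferrin receptor that dividing cells of many types also use, had -0.10. The median of the 3 was -0.17.

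Among the other 16 measured genes of heme and iron handling, 4 were at least 1.2-fold lower, 0 were higher and the median was -0.11. *Blvrb*, a biliverdin reductase abundant in red cells, had a difference of -0.58. *Steap3*, the ferrireductase of erythroid endosomes, had -0.45, and *Hmox1*, which breaks heme down, had -0.43. *Abcb10*, a mitochondrial transporter of erythroid cells, had -0.31. *Alas1*, the form of the first enzyme in all other cells, had -0.23, within the cutoff, and the iron storage gene *Fth1* had -0.10.

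Membrane proteins made up 3 of the 6 genes that were at least 1.5-fold lower. Of 7 membrane proteins, 5 were at least 1.2-fold lower and 0 higher, with a median of -0.54. *Rhag*, the Rh-associated glycoprotein that the Rh complex needs to reach the surface, had 7.76 in WT and 6.65 in *Mafk*-Tg, with a difference of -1.11 or 2.16-fold lower. Its Rh partner *Rhd* had 7.81 and 7.05, a difference of -0.76 or 1.69-fold lower. *Ermap*, which carries the Scianna blood group, had 8.42 and 7.57, a difference of -0.86 or 1.81-fold lower. These 3 genes had the 5th, 20th and 13th lowest differences among the 11376 genes at or above the median level. *Slc4a1*, the anion exchanger band 3, had 9.78 and 9.24, a difference of -0.54. *Kel*, the Kell antigen, had 7.38 and 6.91, a difference of -0.47. *Gypc*, a glycophorin that also occurs outside red cells, had -0.14, and *Icam4*, the Landsteiner-Wiener antigen, had -0.04 at a signal below the median level on both arrays. The Rh pair and *Ermap* thus differed more than band 3, and *Gypc* and *Icam4* stayed within the cutoff.

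All 3 genes of the membrane skeleton, the protein net that lies under the membrane, were at least 1.2-fold lower. *Ank1*, the ankyrin that ties band 3 to spectrin, had 7.66 in WT and 7.19 in *Mafk*-Tg, with a difference of -0.48. *Epb42*, which steadies that link, had 7.33 and 6.89, a difference of -0.44. *Sptb*, the β-spectrin of red cells, had 7.58 and 7.22, a difference of -0.35. These 3 values lie closer together than those of the 7 membrane proteins, but a range also widens with the number of genes.

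Of the 12 other measured genes of the red cell membrane and its skeleton, 3 were at least 1.2-fold lower, 0 were higher and the median was -0.12. *Add2*, the adducin subunit of red cells and neurons, had 6.26 and 5.41, a difference of -0.86. *Mpp1*, which links glycophorin C to the skeleton, had -0.31, and *Dmtn*, an actin-bundling protein of the skeleton, had -0.30. *Aqp1*, the water channel of red cells and of many other tissues, had -0.23. The adducin subunits of most tissues, *Add1* and *Add3*, had -0.10 and 0.06.

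Carbonic anhydrases, which turn carbon dioxide into bicarbonate, were both lower. *Car1*, the enzyme found in red cells and in the gut, had 7.58 in WT and 6.39 in *Mafk*-Tg, with a difference of -1.19 or 2.28-fold lower. It had the lowest difference of the 37 genes and the 3rd lowest of the 11376 at or above the median level. *Car2*, which pancreatic duct cells make as well, had 9.88 and 9.33, a difference of -0.55. The epithelial keratins *Krt8* and *Krt18* had 0.10 and 0.13 on the same arrays. The part of duct cells in the difference of *Car2* was not tested.

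Transcription factors of the erythroid programme were lower in 4 of 6 cases and higher in 0, with a median of -0.42. *Gfi1b*, a repressor needed for red cells and platelets, had 7.45 in WT and 6.81 in *Mafk*-Tg, with a difference of -0.63 or 1.55-fold lower. *Klf1*, which switches on adult β-globin and many red cell genes, had 6.71 and 6.19, a difference of -0.52. *Lmo2*, a bridge protein of the TAL1 complex that endothelial cells also make, had 8.55 and 8.09, a difference of -0.46. *Gata1*, the factor at the head of the programme, had 6.16 and 5.79, a difference of -0.38 around the median level of the arrays. *Tal1* had 7.04 and 6.78, a difference of -0.26 that lies just short of the cutoff at 1.197-fold and passed it when the medians of the arrays were set equal. *Zfpm1*, which encodes the GATA1 cofactor FOG1, had -0.15. The factors thus ranged from *Gfi1b*, past 1.5-fold, to *Zfpm1*, well within the cutoff.

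Of 15 further transcription factors of erythroid cells and blood progenitors, 5 were at least 1.2-fold lower and 0 higher, with a median of -0.18. *Nfe2*, the blood partner of MAFK, had 6.80 and 6.15, a difference of -0.65, and *Lyl1*, a relative of *Tal1*, had 7.81 and 7.22, a difference of -0.59. *Myb* and *Gata2*, which act in progenitors, had -0.34 each, and *Ldb1*, a member of the TAL1 complex that many tissues make, had -0.28. *Mafk* itself had 6.75 in WT and a difference of 0.25, within the cutoff, and whether its probes lie in the transgene's cDNA is not known here.

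Of the remaining 6 measured genes of the set, 5 were at least 1.2-fold lower and 0 higher, with a median of -0.41. *Hemgn*, a nuclear protein of erythroid cells, had 7.45 in WT and 6.63 in *Mafk*-Tg, with a difference of -0.82 or 1.77-fold lower. *Tspo2*, an erythroid membrane protein of late precursors, had 6.15 and 5.57, a difference of -0.58. *Trim58*, a ubiquitin ligase of late erythroblasts, had 6.03 and 5.58, a difference of -0.45. *Cldn13*, a claudin of mouse erythroid cells, had -0.37, and *Epor*, the receptor for erythropoietin, had 6.83 and 6.47, a difference of -0.36. *Trim10* had -0.16. *Tspo2*, *Trim58* and *Cldn13* had mean signals below the median level, where genes pass the cutoff more often. Among the 8 measured enzymes that red cells share with other tissues, 1 was lower and 0 were higher, with a median of -0.03. The lower gene was the pyruvate kinase gene *Pklr* at -0.69, and the cells that gave its signal were not tested. *Bpgm*, which makes the phosphate that tunes hemoglobin, had 0.07.

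Markers of leukocytes, and of the liver and spleen that lie beside the pancreas, were mostly lower too. Of 15 leukocyte markers, 13 were at least 1.2-fold lower and 0 higher, with a median of -0.60, and their summed linear signal was 7824 in WT and 4730 in *Mafk*-Tg. *Ctsg*, *Mpo* and *Elane*, granule genes of myeloid cells, had -1.25, -1.0 and -0.88. Of 6 measured megakaryocyte and platelet markers, 1 was lower, *Gp9* at -0.30, and the median was -0.13. Of 9 hepatocyte markers, 6 were lower and 1, *Ttr*, was higher, with a median of -0.47 and summed linear signals of 4801 and 3980. Such sums weigh the brightest probe sets most. These were *Srgn* and *Lyz2* in the leukocyte list, with 11.51 and 10.56 in WT. In the hepatocyte list they were *Alb* and *Ttr*, with 11.23 and 10.29 in WT. The cells that gave the *Ttr* signal were not tested. *Apob*, *Apoa1* and *Alb* had -0.94, -0.59 and -0.57. Of 5 spleen stroma markers, 3 were lower and 0 higher, with a median of -0.42, among them *Tlx1* and *Nkx2-5* at -0.46 each. Their part in the lower erythroid genes was not tested, and the dimmest marker of these lists, *Fga* of the hepatocyte list, had a signal of 5.19 in WT.

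Markers of the tissue of the pancreas were split in direction. All 8 measured acinar markers had a difference above 0, with a median of 0.22, and 2 were higher past the cutoff. These were *Cpb1* at 0.54 and *Bhlha15* at 0.42. Of 11 endocrine and duct markers, 3 were higher and 2 lower, with a median of 0.15. *Cpa1*, the acinar carboxypeptidase, had 13.48 in WT and 13.51 in *Mafk*-Tg, the smallest difference of the acinar list. Of 8 endothelial markers, which line the vessels that hold the blood, 0 passed the cutoff, though 8 of 8 lay below 0, with a median of -0.14. Of 8 mesenchyme markers, 2 were lower and 8 of 8 lay below 0, with a median of -0.20. The 10 measured reference genes had a median of 0.01 and 0 past the cutoff. *Xist* had 4.40 in WT and 11.30 in *Mafk*-Tg and the Y-linked *Eif2s3y* 8.29 and 2.61, so embryo sex and genotype cannot be told apart. *Alas2* and *Gata1* are the X-linked genes of the set, and without them 22 of 35 were lower, 2 were higher and the median was -0.37.

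**Figure D4:**
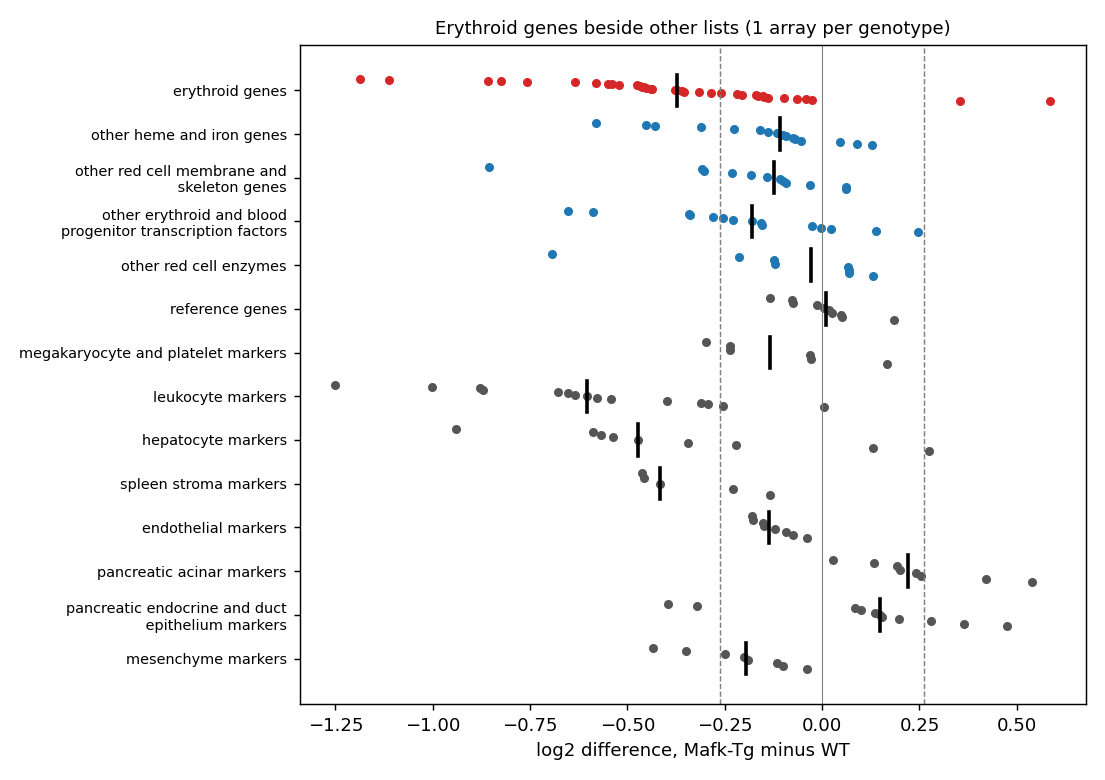
Log2 difference (*Mafk*-Tg minus WT) of the measured erythroid genes (red), other genes of red cell biology (blue) and markers of other cells and reference genes (grey), with black bars at list medians and dashed lines at 1.2-fold. The erythroid, leukocyte, hepatocyte and spleen stroma medians lie left of the lower dashed line, at -0.37, -0.60, -0.47 and -0.42.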

How the data were processed

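RNA from whole pancreas had been put on Affymetrix mouse gene arrays, of which 1 per genotype was analysed, and samples were grouped by the genotype in the labels. The deposited values are log2 signals that the authors normalized and summarized per probe set with Expression Console (Affymetrix). Its version, its method and the genome build were not given in the sources used here, and for RNA extraction the labels name Trizol and the paper a column kit. Of 35556 probe sets, 21789 had 1 gene symbol in the platform's table, 1621 had several and 12146 are unnamed here. A gene's value is the mean of its probe sets with 1 symbol, and each of the 37 erythroid genes had 1 such probe set. Array medians were 6.01 in WT and 6.01 in *Mafk*-Tg, and no further scaling was applied.

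Calls used a cutoff of 1.2-fold and no test. The genes and lists were chosen with earlier results of these data known. All genes of the set are named. Genes of other lists were taken from those with the largest differences, up to 5 per red cell list and 3 per marker list. *Mafk*, *Xist* and *Eif2s3y* were added. Not every gene under this rule is named, and the endocrine and duct, endothelial, mesenchyme and reference lists have no gene named by it. *Hbb-bh2*, *Fth1*, *Add1*, *Add3*, *Bpgm*, *Krt8*, *Krt18*, *Cpa1*, *Ttr*, *Fga*, *Flvcr1*, *Srgn*, *Lyz2* and the neighbours of the globin clusters fall outside this rule. They were chosen with their values in view. Promoters were matched by symbol to RefSeq. Alternatives were other scalings, other uses of several probe sets, a filter on level, leaving out sex chromosomes and a cutoff of 1.5-fold. The steps were run on simulated data with differences set past the cutoff, which checks the code and not the precision of the values. The software was matplotlib 3.10.9, statsmodels 0.14.6, pandas 2.3.3 and numpy 2.4.6 under Python 3.11.15.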

Additional observations from a re-analysis of the deposited data

How the results depend on the processing

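Shifting the arrays to 1 median, quantile normalization, subtracting a loess curve (span 0.3) fitted to the differences by level, the brightest probe set, adding probe sets with several symbols, and leaving out genes of the X and Y chromosomes each left the counts within 1.5 times and the medians within 0.1 of the values reported. Under the 3 scalings, 23 of the 23 lower genes remained lower, and 1 gene, *Tal1*, changed its call. A cutoff of 1.5-fold left 6 lower and 0 higher erythroid genes, 2 lower among the other transcription factors, 1 lower among the other membrane and skeleton genes and 0 lower among the other heme and iron genes. *Hba-x* lies so near that line that its difference was 0.58 as deposited and 0.59 after the loess. With genes below the median level left out, the median of the embryonic globins was 0.47 and that of the membrane proteins -0.65, since *Hbb-bh1* and *Icam4* drop out. No paired analysis was possible because each genotype has 1 array, and no array could be left out for the same reason. Genes below the median level spread more around 0 (robust SD 0.24) than those at or above it (0.15), and how far signal over background limits the dim genes, or the top of the scale the adult globins, was not tested.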

Other observations

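The genes that flank the globin clusters, chosen after the globin values had been seen as the 4 measured genes on each side in the RefSeq order of GRCm38.p6, all lay within 1.2-fold. Of all 19938 genes, 16264 did too. Beside the α cluster, *Nprl3*, whose introns hold α-globin enhancers, had a difference of -0.07, *Mpg* -0.19, *Rhbdf1* -0.10 and *Snrnp25* 0.02 on the side of *Hba-x*. On the other side *Stk10*, a kinase gene, had -0.26 and *Sh3pxd2b* had -0.16. The neighbours of the β cluster are olfactory receptor genes, and *Olfr68* and *Olfr66* had -0.21 and -0.20 at signals of 4.43 and 3.17 in WT, below the median level of the arrays. *Hba-x* at 0.58 and *Hbb-y* at 0.35 lay past that cutoff. The neighbours of the β cluster ran from 2.38 to 4.56 in WT, levels at which a rise may not show. Whether either region as a whole differed was not tested.

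Some red cell genes had several probe sets that differed, and in *Hk1* and *Flvcr1* they pointed opposite ways with 1 past the cutoff. *Hk1*, a hexokinase, had -0.33 in one probe set and 0.08 in another, and *Flvcr1*, a heme exporter, had 0.27 and -0.02. *Tmod1*, which caps the actin of the skeleton, had -0.06 in one probe set and -0.31 in another, and *Prdx2*, a peroxidase of red cells, had -0.08 and -0.17.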
